A study of Mus musculus with 4 samples.

Results

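Serpins are a family of proteins that mostly block proteases by offering them a loop as bait and trapping them when they cut it, although some members have lost this activity and serve other roles. 5 mouse serpin genes of clades A, E, F and H were listed by name for description, and 4 of them, Serpina3g, Serpine2, Serpinf1 and Serpinh1, were matched among the 12208 genes of the expression table. The fifth, Serpina3n, had no matching identifier and is not analysed here. The cells were 3T3, which the labels call a pre-osteoblast line; 3T3 is also the name of mouse fibroblast lines. They received recombinant LTα1β2 for 24 h, control treatment for 24 h, LTα1β2 for 48 h or control treatment for 48 h. LTα1β2, a membrane lymphotoxin related to TNF, binds the lymphotoxin β receptor, which signals through NF-κB. Each group was 1 library of bulk RNA, and what the control cells received is not given further. A difference at 1 time therefore has no replicate check, and in bulk RNA fewer cells of a type cannot be told apart from less RNA per cell.

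The 4 genes differ in what their proteins do. Serpina3g, also called Spi2A, acts inside mouse cells and is known as an inhibitor of lysosomal cathepsins and as an NF-κB target in mouse leukocytes. Serpine2, or protease nexin-1, is a secreted inhibitor of thrombin and of the plasminogen activators. Serpinf1 encodes pigment epithelium-derived factor, a secreted protein without known protease inhibition that acts on blood vessels and bone, and its loss in humans causes a form of brittle bone disease. Serpinh1 encodes HSP47, the chaperone that binds procollagen in the endoplasmic reticulum and is needed for stable collagen triple helices. It does not act as a protease inhibitor either.

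The values were CPM, counts scaled to a sum of 1000000 in each library. Reads recovered from them numbered 14986101 (LTα1β2) and 15995777 (control) at 24 h, and 11355974 (LTα1β2) and 13097396 (control) at 48 h. The LTα1β2 48 h library stood apart in transcript length, with a read-weighted median of 2848 bases, against 3346 in control at 48 h, 3329 in LTα1β2 at 24 h and 3414 in control at 24 h. Of 9 osteoblast markers 7 were measured, Runx2 and Sp7 among them, and 5 of the 7 fell with LTα1β2 in the additive limma fit described below, where 2.27% of all tested genes fell and 2.92% rose. With 9.82 prior degrees of freedom, or after median-of-ratios rescaling, 3 of the 7 fell, where 0.206% and 0.691% of all tested genes did. Of 6 fibroblast markers 5 were measured; 1 rose and 2 fell, and 0 passed under either of those settings. Of markers of other cell types 3 of 8 for macrophages and leukocytes, 1 of 5 for endothelium, 1 of 4 for adipocytes and 0 of 4 for epithelium were measured. The measured adipocyte marker, Fabp4, was at 2.40 CPM with LTα1β2 and 1.94 CPM in control at 24 h, and at 6.69 CPM with LTα1β2 and 1.45 CPM in control at 48 h; it rose in the additive fit (adjusted p = 0.00267, limma) and did not pass under those settings. The summed macrophage level was 57.4 and 85.9 CPM with LTα1β2 at 24 h and 48 h, against 65.1 and 75.4 CPM in control, mostly Lyz2; Ptprc, Adgre1, Itgam, Tyrobp and Fcer1g were not matched and are not analysed here. The part of these markers in the results was not tested.

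2 upstream regions and 1 shared coding stretch are shown first. Serpina3g is the 1 gene of the 4 that passed the 2-fold rule and the additive fit described below, and its reads may be mixed with those of its copies. The regions are the 250 bases before the RefSeq start (RefSeq, GRCm38.p6), read on the strand of the gene. Serpina3g lies at chr12:104235897-104236146 on the plus strand and Serpinh1 at chr7:99353240-99353489 on the minus strand. Capitals mark a match to the κB consensus, searched on both strands, and in Serpina3g also the STAT motif TTCNNNGAA nearer to the start.
Serpina3g: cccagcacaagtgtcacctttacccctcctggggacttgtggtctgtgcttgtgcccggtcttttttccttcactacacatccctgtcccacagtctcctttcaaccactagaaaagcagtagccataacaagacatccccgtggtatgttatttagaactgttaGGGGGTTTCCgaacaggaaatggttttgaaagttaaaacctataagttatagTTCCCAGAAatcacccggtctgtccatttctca
Serpinh1: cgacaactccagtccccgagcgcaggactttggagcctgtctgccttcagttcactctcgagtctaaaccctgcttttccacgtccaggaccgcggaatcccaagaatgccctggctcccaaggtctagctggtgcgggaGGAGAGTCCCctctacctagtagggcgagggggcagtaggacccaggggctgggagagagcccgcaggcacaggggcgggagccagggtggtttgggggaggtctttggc

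The κB match of Serpina3g, GGGGGTTTCC, lay 85 to 76 bases before the start, and its STAT match 33 to 25 bases before it. Serpinh1 had a κB match too, printed as GGAGAGTCCC and fitting the consensus when read on the strand opposite to the one shown, 110 to 101 bases before the start. As background, 7.25% of the 32851 upstream windows held a κB match and 7.02% a STAT match. Serpine2, Serpinf1 and Serpina3n had neither in these 250 bases. The AP-1 motif TGANTCA, the TATA box TATAAA and the heat shock core GAANNTTC (in 6.75%, 12.4% and 6.69% of windows) had no match before any of the 5 genes. The Serpine2 window was rich in G and C (78.8%) and held 6 GC boxes, GGGCGG, some overlapping, which 32.7% of windows hold at least once. Serpinh1 held 1 GC box. These are matches of letters in a window and say nothing of binding. The GENCODE M21 gene start was the same as the RefSeq start for Serpinh1, 98 bases downstream for Serpina3g and 2515 bases upstream for Serpine2.

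Serpina3g (ENSMUSG00000041481.16, chr12:104236245-104241939, plus strand, GRCm38) is 1 of 14 annotated Serpina3 genes and pseudogenes, 10 of them protein-coding, which lie together on chromosome 12 from 104112724 to 104414329. The build used by the authors is not given in the sources used here. It was the only Serpina3 gene measured. Over the aligned coding bases its model was 88.7% identical to Serpina3f, 86.6% to Serpina3i and 85.3% to Serpina3n. The longest identical coding run, 121 bases, was with the pseudogene Serpina3e-ps. The stretch below is the longest shared with Serpina3n, 100 bases long, at coding bases 380 to 479 of Serpina3g and 986 to 1085 of Serpina3n in the GENCODE M21 models.
Shared by Serpina3g and Serpina3n: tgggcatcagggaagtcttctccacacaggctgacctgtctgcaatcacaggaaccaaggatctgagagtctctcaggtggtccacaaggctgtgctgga
Of the 1754 windows of 50 bases in the Serpina3g transcript, 281 (16.0%) also occurred in a transcript of another serpin gene. Of the 1654 windows of 150 bases, the length of 1 read, 0 did. Serpine2, Serpinf1 and Serpinh1 shared 0 windows even at 50 bases. How the authors treated reads that fit several genes is not given in the sources used here, and the part of its copies in the Serpina3g value was not tested.

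Serpina3g was far higher in LTα1β2-treated cells at both times, while Serpine2, Serpinf1 and Serpinh1 differed little. With a size threshold of 2-fold on log2(CPM + 1), 1 of the 4 genes was higher and 0 were lower at 24 h, where 0.345% of the 12160 tested genes were higher and 0.181% lower. At 48 h the counts were again 1 and 0, against 1.86% and 0.715%. The only test was an additive limma fit of treatment and time on log2(CPM + 1), which uses the times as repeats and has 1 residual degree of freedom. In it 1 of the 4 genes passed an adjusted p of 0.05, higher, and 0 lower, against 2.92% of all tested genes higher, 2.27% lower and 5.19% in either direction. Serpina3g was the gene in each of these counts. At a limma p of 0.05 without adjustment it was still 1 of the 4, where 16.3% of all tested genes had such a p, and limma voom on the recovered reads also called 1. The share of all tested genes called depended on the setting. It was 4.17% higher and 3.03% lower with the length trend removed, and 0.321% higher and 0.206% lower with 9.82 prior degrees of freedom. Without the LTα1β2 24 h library it was 15.5% higher and 25.2% lower, and without the LTα1β2 48 h library 3.31% higher and 3.04% lower. The counts of each gene list below stand against these shares.

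**Figure D1:**
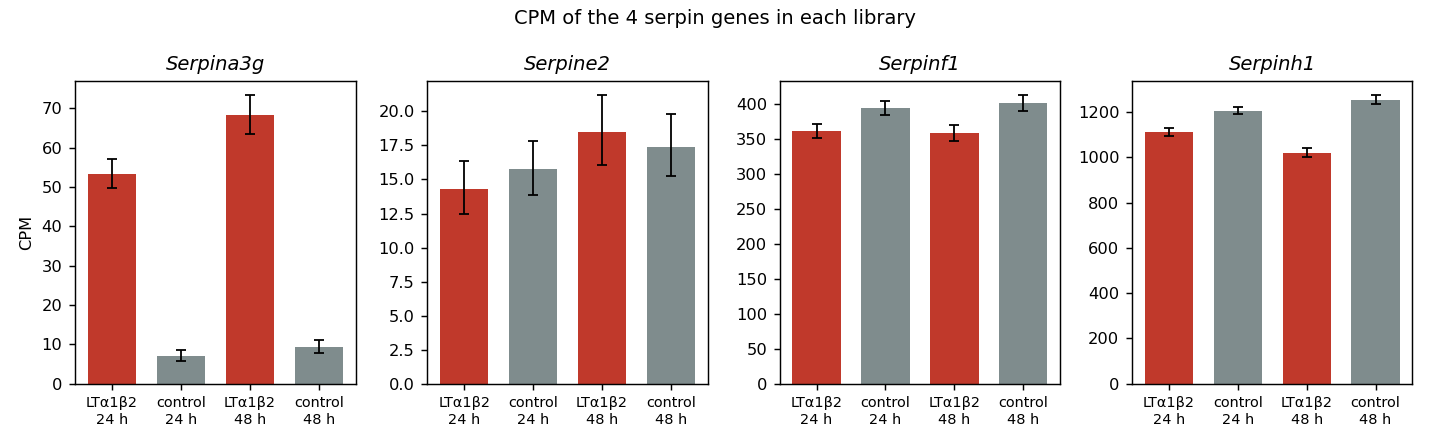
Bars give the CPM of each of the 4 serpin genes (y axis, its own scale in each panel) in each library (x axis), LTα1β2 in red and control in grey, and error bars are exact 95% Poisson intervals for counting error only. Serpina3g stands at 53.3 and 68.2 CPM with LTα1β2, against 7.06 and 9.39 CPM in control, and the other genes differ by far less between the bars.

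Serpina3g was measured at 53.3 CPM with LTα1β2 and 7.06 CPM in control at 24 h, and at 68.2 CPM with LTα1β2 and 9.39 CPM in control at 48 h. Both treated libraries were above both controls, and the groups did not overlap. Of all tested genes 28.8% met the looser rule of log2 folds above 0 at both times. These values rest on 799 reads with LTα1β2 and 113 in control at 24 h, and on 775 with LTα1β2 and 123 in control at 48 h. The fold was 7.55 at 24 h (95% counting interval 6.19 to 9.27, conditional binomial, Clopper-Pearson) and 7.27 at 48 h (6.0 to 8.86). These intervals cover counting error and not the differences between cultures. Only 2 of the 12160 tested genes had a higher log2 fold at 24 h and 5 had a higher one at 48 h, by the ranks 3 and 6 from the top. The limma log2 fold was 2.74 ± 0.18 (SE), with an adjusted p of 1.21e-48 and both times in the same direction. Its size reflects a spread taken from genes of like level, since the prior degrees of freedom were infinite. With 9.82 prior degrees of freedom the adjusted p was 2.86e-05, and across 16 other settings it ran from 9.07e-79 to 0.00232 (limma).

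The fold of Serpina3g was nearly the same at both times. The 48 h fold was 0.963 of the 24 h fold (95% counting interval 0.732 to 1.27). Serpina3g was 1.28-fold higher at 48 h than at 24 h with LTα1β2 (1.16 to 1.41) and 1.33-fold in control (1.02 to 1.73), so the level was somewhat higher at the later time in both. By rank of CPM among tested genes it stood at 4524 with LTα1β2 and 9920 in control at 24 h, and at 3401 with LTα1β2 and 9406 in control at 48 h. Its transcript is short, 1803 bases, and with each library's trend on transcript length removed the log2 folds were 2.74 at 24 h and 2.66 at 48 h, against 2.75 and 2.74 as deposited.

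**Figure D2:**
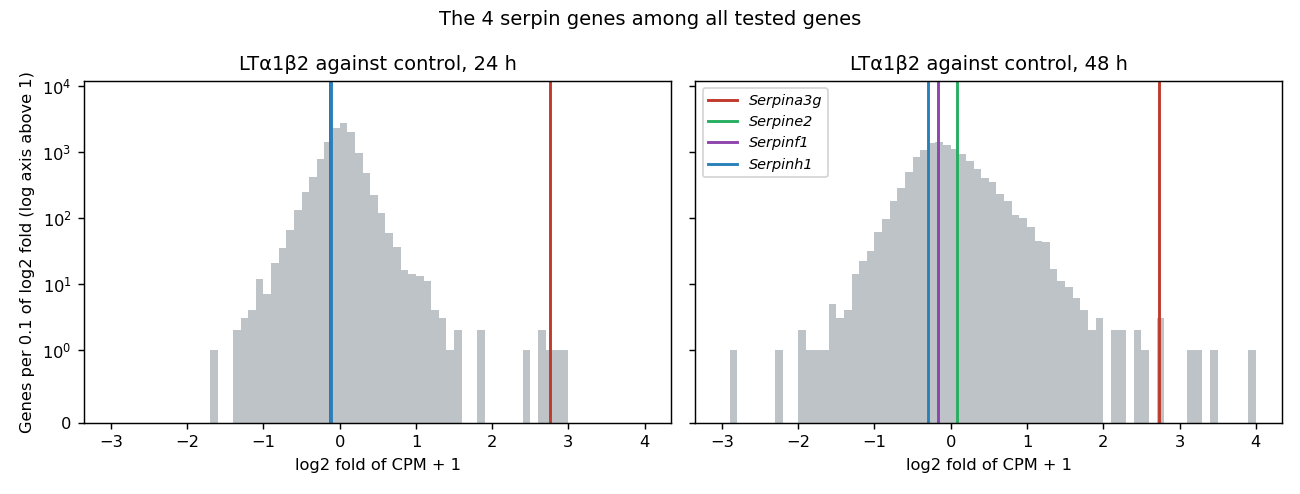
Grey bars count the tested genes by log2 fold of CPM + 1 (x axis, LTα1β2 against control) in steps of 0.1, on a y axis that is logarithmic above 1, and coloured lines mark the 4 serpin genes. Serpina3g lies at 2.75 (24 h, left) and 2.74 (48 h, right) in the far right tail, while Serpine2, Serpinf1 and Serpinh1 lie within the bulk and overlap at 24 h, at -0.13, -0.12 and -0.12.

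The genes whose pattern over the 4 libraries was nearest to that of Serpina3g, by Euclidean distance of centred log2(CPM + 1), were C3 (distance 0.412), Mmp9 (0.414) and Ccl7 (0.433), against a median distance of 2.82 over genes. They encode complement C3, a gelatinase and a monocyte attractant. C3 had log2 folds of 2.89 at 24 h and 3.19 at 48 h, and Mmp9 2.95 and 2.76. With 4 libraries, this likeness is mainly a likeness of fold. Cathepsins are the known targets of Serpina3g. Of 12 tested cathepsin and cystatin genes (of 17 listed) 1 rose and 0 fell in the additive fit (all tested genes: 2.92% and 2.27%). The list's median log2 folds were -0.07 (24 h) and 0.20 (48 h), against 0.02 and -0.09 over all tested genes. With the length trend removed the list's 48 h median was 0.05. Without the LTα1β2 24 h library 6 rose and 1 fell, and with 9.82 prior degrees of freedom 0 did. The 1 was Cstb, an intracellular cystatin that inhibits cathepsins. Cstb was at 127 CPM with LTα1β2 and 83.3 CPM in control at 24 h, and at 177 CPM with LTα1β2 and 87.3 CPM in control at 48 h. Its limma log2 fold was 0.81 ± 0.17 (SE, adjusted p = 0.000191), but with 9.82 prior degrees of freedom the adjusted p was 0.0837 (limma). The Cstb transcript is 603 bases long. With the length trend removed its log2 folds were 0.55 at 24 h and 0.56 at 48 h, against 0.60 and 1.02 as deposited (adjusted p = 0.00133, limma, with the trend removed). Ctsb, cathepsin B, named here for its role, had folds of 0.923 at 24 h and 0.924 at 48 h and did not pass (adjusted p = 0.841, limma). Ctsa, a lysosomal carboxypeptidase, was at 0.878 and 0.870 of control and did not pass, nor did Ctsw, with at most 1.80 CPM in every library.

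Serpine2 (ENSMUSG00000026249.10, chr1:79794197-79861180, minus strand) was the lowest of the 4 genes by level in the treated libraries. It was measured at 14.3 CPM with LTα1β2 and 15.8 CPM in control at 24 h, and at 18.5 CPM with LTα1β2 and 17.4 CPM in control at 48 h. The groups overlapped, since 1 treated library was the highest and the other the lowest of the 4. The fold was 0.906 at 24 h (0.752 to 1.09) and 1.06 at 48 h (0.876 to 1.29), so both counting intervals held 1. The limma log2 fold was -0.03 ± 0.19 (SE, adjusted p = 0.973), and its sign turned with median-of-ratios rescaling (0.01). With 210 to 252 reads a library, a change of about the width of these intervals could not be seen. From 24 h to 48 h the change was 1.30-fold with LTα1β2 (1.07 to 1.57) and 1.10-fold in control (0.92 to 1.33). The nearest patterns were those of Ptms (distance 0.013), Hint3 (0.021) and Slc25a14 (0.028), against a median distance of 0.456 over genes.

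The listed genes of the plasminogen and thrombin system, which holds the targets of Serpine2, moved in a mixed way. Of 12 tested genes (of 18 listed) 1 rose and 2 fell in the additive fit (all tested genes: 2.92% and 2.27%), with median log2 folds of -0.09 and -0.35 at 24 h and 48 h, against 0.02 and -0.09 over all tested genes. With limma voom the counts were the same, and without the LTα1β2 24 h library 2 rose and 6 fell. S100a10, which binds annexin A2 and plasminogen at the cell surface, was at 334 CPM with LTα1β2 and 265 CPM in control at 24 h, and at 636 CPM with LTα1β2 and 293 CPM in control at 48 h (limma log2 fold 0.72 ± 0.18 SE, adjusted p = 0.00216). Its transcript is 685 bases long, and the length of transcripts differed in the LTα1β2 48 h library. With the length trend removed S100a10 had an adjusted p of 0.00894 (limma). Thbs1, thrombospondin, fell to 300.1 CPM with LTα1β2, against 600.1 CPM in control, at 24 h and to 245 CPM, against 590 CPM in control, at 48 h (adjusted p = 4.75e-08, limma). Thbd, thrombomodulin, which turns thrombin towards activating protein C, fell in treated cells, with folds of 0.778 (0.742 to 0.815) and 0.551 (0.520 to 0.584) at the 2 times (adjusted p = 0.0123, limma). With 9.82 prior degrees of freedom 0 of the list rose and 1 fell, Thbs1. F2r, the thrombin receptor PAR1, was at 0.848 and 0.632 of control and did not pass (adjusted p = 0.114, limma). The targets of Serpine2, Plau (urokinase) and Plat (tissue plasminogen activator), and the uptake receptor Lrp1 were named for their roles. Their folds at 24 h were 0.934, 0.938 and 0.884, and at 48 h 0.821, 0.578 and 0.637, and none of the 3 passed (adjusted p = 0.726, 0.143 and 0.301, limma).

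Serpinf1 (ENSMUSG00000000753.15, chr11:75409769-75422701, minus strand) was abundant in every library. It was measured at 362 CPM with LTα1β2 and 394 CPM in control at 24 h, and at 358 CPM with LTα1β2 and 401 CPM in control at 48 h. Both treated libraries were below both controls, where 33.2% of all tested genes met the looser rule of log2 folds below 0 at both times. The fold was 0.918 at 24 h (0.885 to 0.952) and 0.893 at 48 h (0.857 to 0.930). The counting intervals lie below 1, but the limma log2 fold of -0.14 ± 0.18 (SE) did not pass (adjusted p = 0.783). At 24 h 22.7% of tested genes had a lower log2 fold than Serpinf1, and at 48 h 41.2%. With median-of-ratios rescaling its 48 h log2 fold was -0.07, against -0.16 as deposited and -0.23 with the length trend removed. Its level hardly moved with time, by 0.991-fold with LTα1β2 (0.951 to 1.03) and 1.02-fold in control (0.982 to 1.06). The nearest patterns were those of Phtf1, Tkfc and Specc1, at distances of 0.007, 0.026 and 0.027, against a median of 0.322 over genes.

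Of 5 tested genes for proposed receptors and binding partners of Serpinf1 (of 7 listed), 0 passed the additive fit in limma, with 3 at a p of 0.05 without adjustment, as had 16.3% of all tested genes, and 0 by limma voom. Lrp6 and Plxdc2 fell once the length trend was removed (adjusted p = 0.0331 and 0.0230, limma), which makes 2, where 3.03% of all tested genes fell. Lrp6, a Wnt co-receptor, was at 309 CPM with LTα1β2 and 386 CPM in control at 24 h, and at 220 CPM with LTα1β2 and 354 CPM in control at 48 h. Plxdc2 was at 0.816 and 0.618 of control. Rpsa, the laminin receptor and ribosomal protein gene, was at 1.05 and 1.65 times control, and Atp5b, an ATP synthase subunit gene, at 1.02 and 1.10. Pnpla2, which encodes a triglyceride lipase and was named for its role, had folds of 0.949 (0.815 to 1.10) and 1.09 (0.920 to 1.29).

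Serpinh1 (ENSMUSG00000070436.12, chr7:99345376-99353239, minus strand) was the most abundant of the 4 genes. The summed CPM of these 4 and 6 measured clade B serpin genes was not scaled by transcript length. Serpinh1 gave 61.0% of it with LTα1β2 and 64.4% in control at 24 h, and 52.6% with LTα1β2 and 63.8% in control at 48 h. It was measured at 1113 CPM with LTα1β2 and 1206 CPM in control at 24 h, and at 1020 CPM with LTα1β2 and 1253 CPM in control at 48 h. Both treated libraries were below both controls, where 33.2% of all tested genes met the looser rule of log2 folds below 0 at both times. The fold was 0.923 at 24 h (0.904 to 0.942) and 0.814 at 48 h (0.795 to 0.834). The ratio of these folds was 0.882 (0.855 to 0.911), and Serpinh1 was the only 1 of the 4 genes whose counting interval for this ratio left out 1. That interval rests on 11586 to 19293 reads a library, and the share of all tested genes with such an interval was not counted. With no replicate at either time, the difference between the folds has no test. With median-of-ratios rescaling the log2 folds were -0.13 and -0.21, against -0.12 and -0.30 as deposited. The medians over all tested genes were 0.02 and -0.09. The limma log2 fold was -0.21 ± 0.19 (SE, adjusted p = 0.681). In the fit without the LTα1β2 24 h library it was -0.27 and passed (adjusted p = 0.0264, limma), which makes 2 of the 4 genes there, in a fit that called 40.7% of all tested genes; over the 16 other settings the adjusted p ran up to 1.00. That fit sets the LTα1β2 48 h library against both controls, with no time term. At 24 h 23.7% of tested genes had a lower log2 fold than Serpinh1, and at 48 h 26.1%. With time Serpinh1 changed 0.917-fold with LTα1β2 (0.895 to 0.939) and 1.04-fold in control (1.02 to 1.06). After median-of-ratios rescaling its log2 change with time under LTα1β2 was 0.01, against -0.13 as deposited.

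The listed genes of procollagen folding and modification were mostly lower with LTα1β2, and the collagen genes more so than Serpinh1. Beside genes that fold and modify procollagen, the list holds Sparc and the collagen genes Col1a1, Col1a2, Col3a1, Col5a1 and Col5a2. Each of these had a log2 fold below 0 at both times and adds to the list's counts and medians. Of 25 tested genes (of 26 listed) 20 had log2 folds below 0 at both times and 0 above 0 at both, against 33.2% and 28.8% of all tested genes, and the list's median was -0.24 (24 h) and -0.38 (48 h). In the additive fit 3 fell, the collagen genes Col1a1 and Col3a1 and the isomerase gene Fkbp14, and 0 rose (all tested genes: 2.27% and 2.92%). The count that fell was 5 with the length trend removed or without the LTα1β2 48 h library, 19 without the LTα1β2 24 h library, where 1 rose and 25.2% of all tested genes fell, and 0 with 9.82 prior degrees of freedom. Col1a1, a chain of type I collagen, fell to 10034 CPM with LTα1β2, against 15684 CPM in control, at 24 h and to 7356 CPM, against 14201 CPM in control, at 48 h (adjusted p = 0.0338, limma). With the length trend removed its adjusted p was 0.101 (limma). Col3a1 was at 0.695 and 0.515 of control, and Fkbp14, a prolyl isomerase of the endoplasmic reticulum, at 0.725 and 0.626. Col1a2 was at 0.734 and 0.615 and did not pass (adjusted p = 0.212, limma).

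**Figure D3:**
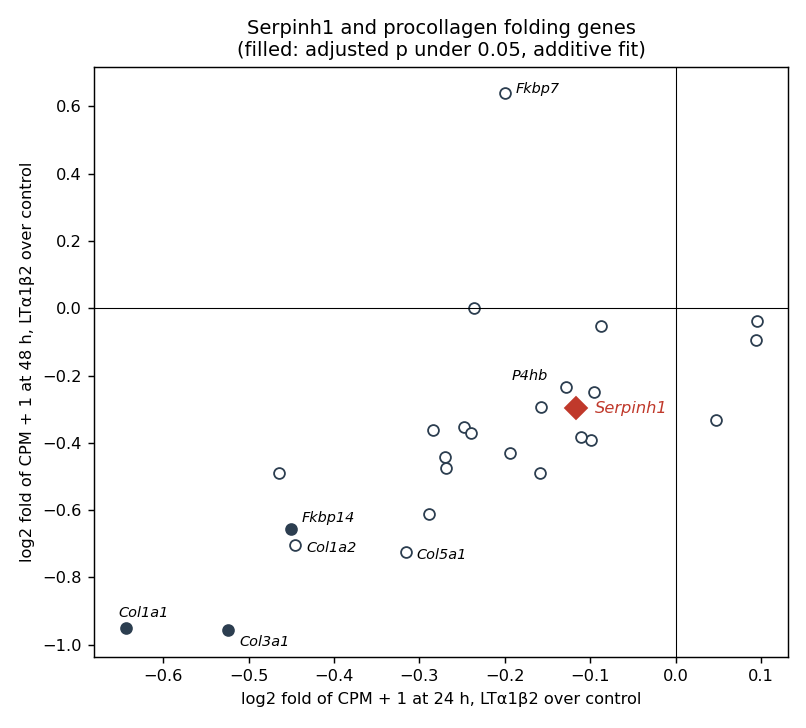
Each point is a gene of the procollagen list, collagen genes included, by log2 fold of CPM + 1 at 24 h (x axis) and 48 h (y axis), LTα1β2 over control. Filled points passed the additive limma fit and the red diamond is Serpinh1. Serpinh1 (-0.12 and -0.30) lies near P4hb and above the collagen genes Col1a1 (-0.64 and -0.95) and Col3a1 (-0.52 and -0.96).

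Because the collagen genes differed more, Serpinh1 stood higher relative to them in treated cells. This is not particular to Serpinh1, since 76.3% of tested genes at 24 h and 73.9% at 48 h had a higher log2 fold than it. Per 1000 CPM of Col1a1 there were 111 CPM of Serpinh1 with LTα1β2 and 76.9 in control at 24 h, and 139 with LTα1β2 and 88.3 in control at 48 h. Per 1000 CPM of Col1a2 there were 92.4 with LTα1β2 and 73.5 in control at 24 h, and 97.1 with LTα1β2 and 73.3 in control at 48 h. Both treated libraries were above both controls in each ratio, which is a description of 4 libraries with no test. Other chaperones and enzymes of the same step varied, some near the folds of Serpinh1 and some near those of the collagen genes. Of these, 5 were named for their roles. P4hb, a subunit of prolyl 4-hydroxylase, had folds of 0.915 and 0.851. The subunits Crtap, P3h1 and Ppib of the prolyl 3-hydroxylation complex had 24 h folds of 0.896, 0.894 and 0.941 and 48 h folds of 0.815, 0.709 and 0.964, and Fkbp10 had 0.818 and 0.653. These 5 genes did not pass the additive fit. Fkbp10 fell with the length trend removed (adjusted p = 0.0108, limma), where 3.03% of all tested genes fell. P3h2 and the collagen gene Col5a2, chosen after their values were seen, had folds of 0.716 and 0.703 and of 0.830 and 0.719. Fkbp7, chosen after its values were seen, went against most of the list at 48 h, with folds of 0.865 and then 1.58, and its transcript is 860 bases long. The nearest patterns to Serpinh1 were those of Ank, Surf4 and Ogdhl, at distances of 0.015, 0.021 and 0.028, against a median of 0.330 over genes.

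CPM does not allow for transcript length, so levels were also compared between genes per kilobase. Over the 4 libraries the mean was 505 CPM per kilobase for Serpinh1, 207 for Serpinf1, 19.1 for Serpina3g and 7.46 for Serpine2. The order of the last 2 depended on treatment. Serpina3g was at 29.6 CPM per kilobase with LTα1β2 and 3.92 in control at 24 h, and at 37.9 with LTα1β2 and 5.21 in control at 48 h. Serpine2 was at 6.46 with LTα1β2 and 7.13 in control at 24 h, and at 8.37 with LTα1β2 and 7.88 in control at 48 h. Serpina3g was thus below Serpine2 in both controls and above it in both treated libraries. From 24 h to 48 h 0 of the 4 genes passed the 2-fold rule with LTα1β2, where 1.47% of tested genes did, and 0 in control, where 0.0329% did. These comparisons share their libraries with those of treatment.

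**Figure D4:**
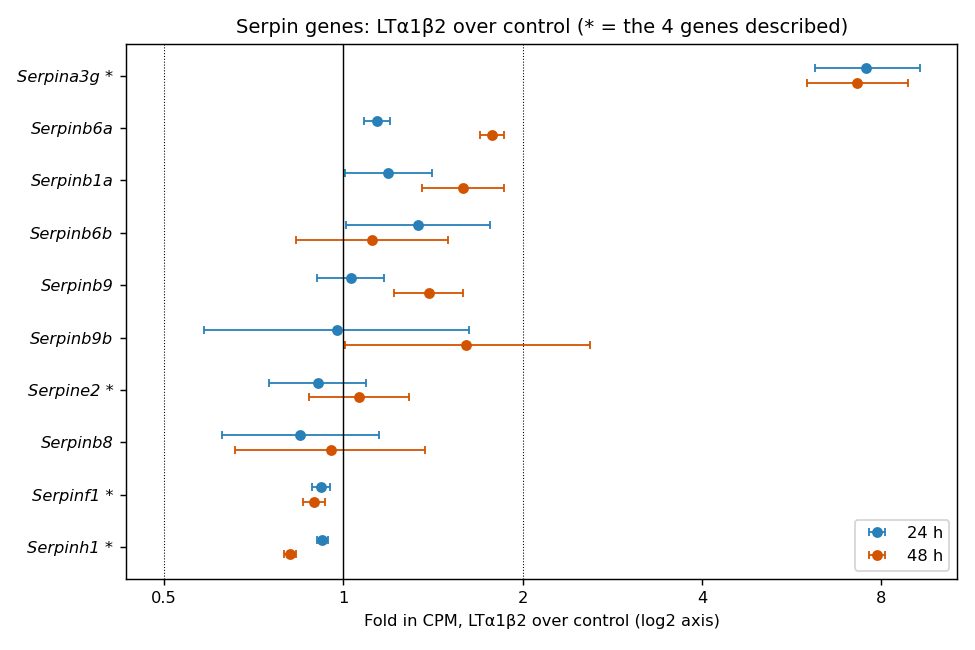
Points give the fold in CPM, LTα1β2 over control, at 24 h (blue) and 48 h (orange) for the 4 serpin genes and 6 genes of clade B (log2 x axis), with 95% counting intervals as bars and dotted lines at 0.5 and 2. Serpina3g (7.55 and 7.27) is the only one of the 10 beyond 2-fold, and Serpinb6a (1.14 and 1.78) is next at 48 h.

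The 4 genes were also set beside 6 measured serpin genes of clade B, whose proteins mostly act inside cells; 5 of these 6 lie on chromosome 13. In the additive limma fit 0 of the 6 passed, against 5.19% of all tested genes, 2 had a p of 0.05 or less without adjustment, against 16.3%, and 1 passed with limma voom. Without the LTα1β2 24 h library 3 of the 6 rose, Serpinb1a, Serpinb6a and Serpinb9, where 15.5% of all tested genes did. Without the LTα1β2 48 h library 0 did, and the log2 fold of Serpinb6a was 0.10. Their median log2 fold was 0.11 at 24 h and 0.49 at 48 h, against medians of 0.02 and -0.09 over all tested genes. Serpinb6a, an intracellular inhibitor of serine proteases, was at 216 CPM with LTα1β2 and 189 CPM in control at 24 h, and at 381 CPM with LTα1β2 and 214 CPM in control at 48 h. Its limma log2 fold was 0.51 ± 0.17 (SE, adjusted p = 0.0577), and it passed with voom (adjusted p = 0.0488) and with the length trend removed (adjusted p = 0.0227, limma; range over its settings 1.64e-24 to 1.00). Serpinb1a, known as an inhibitor of neutrophil proteases, was 1.19-fold (1.01 to 1.41) and 1.59-fold higher (1.36 to 1.86), with an adjusted p of 0.153 (limma). Serpinb9, the granzyme B inhibitor, was at 1.03 and 1.39 times control, and Serpinb9b, Serpinb6b and Serpinb8 had at most 8.28 CPM in every library. At 50 bases Serpinb1a, Serpinb6a, Serpinb6b, Serpinb9 and Serpinb9b shared 0.380% to 3.42% of their windows with another serpin transcript and Serpinb8 shared 0.

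Among 9 tested serine protease genes (of 22 listed) 0 passed the additive limma fit, against 5.19% of all tested genes. 2 had a p of 0.05 or less without adjustment, against 16.3%, and 1 fell with limma voom, against 2.13%. Without the LTα1β2 24 h library 4 fell. Their median log2 folds were -0.19 at 24 h and -0.05 at 48 h. Pcsk6, a proprotein convertase, was at 0.733 and 0.638 of control (adjusted p = 0.0503, limma), and Prss23, a secreted protease, at 0.690 and 0.753 (adjusted p = 0.0888, limma). With the length trend removed both fell (adjusted p = 0.0363 and 0.0199, limma). Masp1 and C1s1, proteases of complement activation, were at 0.817 and 0.804 and at 1.17 and 1.12 times control and did not pass.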

How the data were processed

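The authors deposited 1 CPM table of 12208 genes (versioned Ensembl identifiers) and 4 libraries; each library sums to 1000000 and 0 values are zero. Per the labels' protocols, stranded libraries were made from 1 µg of total RNA and sequenced as 150 bp pairs. edgeR 3.30.0 is named in the submitters' processing notes; the sources used here do not state the aligner, counter, build or annotation. Symbols came from GENCODE M21, which held 12205 of the identifiers (11716 with the version). Transcript length is that of the longest coding transcript.

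The worth of 1 read was found from the steps between low CPM values, and 100% of values were whole multiples within 0.01; the lowest value was 9 to 12 reads. Counting intervals are 95% conditional binomial (Clopper-Pearson). limma 3.58.1 (R 4.3.3, trended, two-sided, Benjamini-Hochberg over the 12160 genes whose mean CPM reached 1) fitted time and treatment on log2(CPM + 1). Its 1 residual degree of freedom is the difference of the fold between the times. With infinite prior degrees of freedom the p-values rest on that difference as taken over genes of like level. They do not measure a spread between cultures, and nothing says that the libraries were separate experiments. Log2 folds on this scale understate low genes. Alternatives were pseudocounts of 0.25 and 5, no filter or a mean CPM minimum of 5, a 1.5-fold rule, median-of-ratios rescaling, removal of each library's length trend (lowess, fraction 0.3), no time term, no trend, the prior degrees of freedom of the rescaled fit (9.82) and each library left out. limma voom on recovered reads, infinite prior degrees of freedom for the rescaled and length-trend fits, and the time comparisons' alternatives were chosen after seeing the data.

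Named genes were the listed serpins, the measured serpins of clade B, the 4 of each list whose mean log2 fold was greatest in size, those of a list that passed the test, and the 3 nearest patterns to each serpin; others are said to be named for their role or after their values were seen. The genes and lists were chosen with earlier results of these data known. Sequences are from RefSeq (GRCm38.p6) and GENCODE M21 (GRCm38). Some results are not reported here.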

Additional observations from a re-analysis of the deposited data

Results flagged for a closer look

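9 named genes had log2 folds, LTα1β2 over control, of opposite sign at 24 h and 48 h. With 1 library a group the difference was not tested. Of all tested genes only 33.2% were below 0 at both times and 28.8% above 0 at both, so opposite signs were common. Serpine2 was at -0.13 at 24 h and 0.083 at 48 h, and both counting intervals of its fold held 1. Serpinb9b was at -0.024 and 0.52, with at most 46 reads in a library. Cst6, a cystatin gene, was at -0.51 and 0.92 and had at most 6.08 CPM. Fkbp7 was at -0.20 and 0.64, and Pnpla2 at -0.073 and 0.12. Lyz2 was at -0.19 and 0.20. Ptms (-0.15 and 0.093), Hint3 (-0.16 and 0.095) and Slc25a14 (-0.17 and 0.099) were named for a pattern near that of Serpine2, so they share its signs by that choice. For each of the 9 the positive value is that at 48 h, where the treated library's read-weighted transcript length stood apart. With the length trend removed the 48 h log2 folds were 0.075 (Serpine2), 0.62 (Serpinb9b), 1.07 (Cst6), 0.27 (Fkbp7), 0.16 (Pnpla2) and 0.0046 (Lyz2). The 24 h log2 folds of these genes stayed below 0. The part of transcript length in the signs was not tested.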

How the results depend on the processing

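Serpina3g passed the additive fit under all 16 alternatives, with log2 folds from 2.31 to 2.93, and was the 1 gene of the 4 past 2-fold at each time under all pseudocounts and scalings run and at 1.5-fold. The count of called genes among the 4 moved to 2 in the fit without the LTα1β2 24 h library (Serpinh1 added); over the fits that leave out a library it ran from 1 to 2. Log2 folds of the additive fit changed sign as follows. Serpine2, at -0.03, gave 0.010 with median-of-ratios rescaling (at both settings of the prior) and ran from -0.20 to 0.15 with a library left out (0.04 without control at 48 h, 0.15 without LTα1β2 at 24 h). Serpinb9b ran from -0.10 to 0.59, with the turned sign in the fit without LTα1β2 at 48 h. The cause was not tested; fits without a library also drop the time term. Of the log2 folds at single comparisons of the 4 genes, 8 moved beyond their counting interval under an alternative and 56 did not; Serpina3g was at 2.27 and 2.35 with a pseudocount of 5. The number of all tested genes called was 355 higher and 276 lower, against 39 and 25 with 9.82 prior degrees of freedom, 95 and 84 with median-of-ratios rescaling, 507 and 369 with the length trend removed, 20 and 11 with no time term, and from 16 and 6 to 1886 and 3063 with a library left out. The count-based quasi-likelihood fit listed among the alternatives was not run: the deposited values are CPM, and reads recovered from them were used only in limma voom and the counting intervals. No paired analysis was possible because the labels give no replicate numbers and each group has 1 library. Depth sets the width of the counting intervals, which rest on as few as 113 reads a library for Serpina3g and 210 for Serpine2.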
